A study of Mus musculus with 12 samples.

Results

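The MAP kinase phosphatases and the Sprouty and Spred proteins are negative regulators of mitogen-activated protein kinase signalling, and their transcripts were followed here in regulatory T cells (Treg) that carried an intact or a deleted Foxp3 gene. The members were chosen by name and function, as the 10 genes Dusp1, Dusp2, Dusp4, Dusp5, Dusp6, Dusp10, Spry1, Spry2, Spred1 and Spred2, out of 55011 genes in the count table. Treg, the CD4 T cells that restrain immune responses, came from lungs and spleens of 21-day-old male C57BL/6 mice and were sorted as living TCRβ, CD4, GFP and CD25 positive cells. Lung ∆Foxp3 libraries carried the genotype ∆Foxp3.ires.GFP and lung WT libraries Foxp3.ires.GFP. Spleen ∆Foxp3 libraries carried ∆Foxp3.EGFP.iCre with an R26.YFP reporter in their genotype label, although the protocol text names only ∆Foxp3.ires.GFP mice, and spleen WT libraries carried Foxp3.ires.GFP. All 4 groups therefore share a green reporter read from the Foxp3 locus, and the gate selects on GFP. Whether the R26.YFP reporter added to that signal in spleen ∆Foxp3 libraries cannot be told from the labels. By these labels, deletion of Foxp3 and the iCre and R26.YFP constructs cannot be told apart in any spleen genotype comparison. Each group had 3 libraries made from 1000 sorted cells. No label ties a library to its own mouse, so each p-value measures the spread between libraries, and that spread can be technical.

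Mitogen-activated protein kinases (ERK, JNK and p38) become active when both a threonine and a tyrosine of their activation loop carry phosphate, and MAP kinase phosphatases remove both. In T cells, antigen receptor and growth factor signals induce many of these phosphatases, so the pathway induces its own inhibitors. Dusp6 resides in the cytoplasm and acts on ERK. Dusp1, Dusp2, Dusp4 and Dusp5 are nuclear and inducible, with Dusp5 selective for ERK and Dusp1 able to act on ERK, JNK and p38. Dusp10 prefers JNK and p38. Sprouty proteins block the step from receptor to Ras and Raf, and Spred proteins bring the Ras inactivator neurofibromin to the membrane.

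The proximal promoters of 4 of these genes are shown, each called in a comparison below: Dusp6 changed with genotype in both tissues, Dusp1 and Dusp10 were higher in lung than in spleen WT Treg, and Dusp5 was higher in lung than in spleen ∆Foxp3 Treg. The calls of Dusp1, Dusp5 and Dusp10 depended on the processing, as given below. Dusp4, whose tissue difference did not, had no promoter entry. Each run covers 250 bases before and 50 bases after the RefSeq start site of build GRCm38.p6, written 5′ to 3′ on the strand of the gene. The Dusp6 window is chr10:99262981-99263280 (plus strand), that of Dusp1 is chr17:26508423-26508722 (minus strand), that of Dusp5 is chr19:53528895-53529194 (plus strand) and that of Dusp10 is chr1:184034131-184034430 (plus strand). Capitals mark matches to the motifs searched.
Dusp6: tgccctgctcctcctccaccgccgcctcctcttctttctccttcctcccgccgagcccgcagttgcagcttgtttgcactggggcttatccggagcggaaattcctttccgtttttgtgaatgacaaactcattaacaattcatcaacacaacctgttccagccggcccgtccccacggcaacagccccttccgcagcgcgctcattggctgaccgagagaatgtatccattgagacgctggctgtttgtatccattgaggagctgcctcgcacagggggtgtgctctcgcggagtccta
Dusp1: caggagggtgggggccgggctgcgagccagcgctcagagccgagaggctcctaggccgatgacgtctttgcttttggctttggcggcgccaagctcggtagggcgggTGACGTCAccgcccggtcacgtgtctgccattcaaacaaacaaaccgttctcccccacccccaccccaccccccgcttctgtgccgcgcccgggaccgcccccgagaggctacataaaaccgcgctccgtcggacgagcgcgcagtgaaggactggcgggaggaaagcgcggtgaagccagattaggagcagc
Dusp5: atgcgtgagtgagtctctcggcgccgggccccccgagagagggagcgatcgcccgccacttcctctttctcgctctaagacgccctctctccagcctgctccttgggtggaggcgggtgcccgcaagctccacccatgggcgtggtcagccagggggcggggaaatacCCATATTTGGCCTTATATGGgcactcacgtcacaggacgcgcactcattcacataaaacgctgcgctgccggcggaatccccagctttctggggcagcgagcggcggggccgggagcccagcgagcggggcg
Dusp10: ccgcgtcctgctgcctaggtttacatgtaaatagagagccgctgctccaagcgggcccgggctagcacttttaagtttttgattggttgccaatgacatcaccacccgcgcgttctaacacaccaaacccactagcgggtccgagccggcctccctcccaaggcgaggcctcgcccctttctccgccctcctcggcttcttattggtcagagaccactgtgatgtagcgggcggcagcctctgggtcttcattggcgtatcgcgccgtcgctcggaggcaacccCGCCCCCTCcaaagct

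RefSeq promoter entries were matched for 9 of the 10 genes, all but Dusp4. Both strands of each window were searched for 6 motifs, and the share of all 32851 promoter windows of this length that hold each motif is given as a background. The capitals in the Dusp1 window are a cAMP response element (TGACGTCA), which 1.79% of all windows hold and which none of the other 8 windows held. The capitals in the Dusp5 window are a pair of abutting CArG boxes, the binding motif of serum response factor, found in 1.63% of all windows and in no other member. The capitals in the Dusp10 window are an EGR motif (GNGGGGGCG) read on the opposite strand. Dusp2 held the same motif, and 7.74% of all windows do. The Dusp6 window held no match to any motif searched. The forkhead letters TGTTTAC (3.65% of all windows), the AP-1 letters TGANTCA (7.81%) and the ETS letters CCGGAAG (8.86%) were in none of the 9 windows. A match says only that the letters are present.

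Library totals ran from 3958892 to 9025150 counts, so that 3 counts in a library correspond to 0.334 to 0.777 CPM, where CPM is the count scaled to the counts of the tested genes and the TMM factor of its library. Levels below are on this scale, and 13295 genes passed the low-count filter and were tested. Foxp3 itself checked the labels: it was lower in ∆Foxp3 than in WT Treg, by a log2 fold change of −1.98 ± 0.29 in lung (SE, edgeR quasi-likelihood test with Benjamini-Hochberg adjustment, adjusted p = 0.00041) and −2.64 ± 0.29 in spleen (adjusted p = 2.9e-05). Lungs were digested for 35 min at 37 °C and enriched for CD4 T cells by magnetic selection, while spleens were dissociated mechanically, so tissue and preparation cannot be told apart in any lung to spleen comparison. In bulk libraries, fewer cells that express a gene and less RNA per cell cannot be told apart either. Among 10 marker lists of the cells that the gate could hold, the summed erythroid and platelet list reached 1.19 to 408 CPM in lung ∆Foxp3, 1975 to 4902 CPM in lung WT, 12.2 to 397 CPM in spleen ∆Foxp3 and 9.10 to 16.6 CPM in spleen WT libraries. This list thus differed between lung WT and spleen WT Treg and between the lung genotypes, while the spleen genotypes overlapped. The B and plasma cell list, mostly Ighm, summed to 134 to 261 CPM in lung ∆Foxp3, 1928 to 1969 CPM in lung WT, 76.6 to 160 CPM in spleen ∆Foxp3 and 1114 to 1274 CPM in spleen WT libraries. Of its defining markers, Pax5 was at 0 in every spleen ∆Foxp3 library and Ms4a1 in every spleen WT library. The lung epithelium list summed to 17.8 to 27.2 CPM in lung ∆Foxp3 and 53.9 to 223 CPM in lung WT libraries. In spleen it summed to 8.63 to 20.7 CPM in ∆Foxp3 and 34.4 to 45.1 CPM in WT libraries. The macrophage, monocyte and dendritic cell list summed to 0.692 to 12.1 CPM in lung ∆Foxp3 and 2.99 to 137 CPM in lung WT libraries. In spleen this list summed to 42.9 to 319 CPM in ∆Foxp3 and 27.8 to 138 CPM in WT libraries. Endothelial and fibroblast lists stayed at or under 15.6 and 8.04 CPM in every library. The part of these lists in the results below was not tested.

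Of the 10 genes, 9 passed the filter, and only Spry2 did not. Dusp1 had the highest level of the 10 in every group on a scale that allows genes to be compared, CPM per kilobase of exon: 285 in lung ∆Foxp3, 279 in lung WT, 36.9 in spleen ∆Foxp3 and 39.2 in spleen WT Treg. Dusp6 had rank 3 of the 10 in lung ∆Foxp3 Treg (29.7 CPM per kilobase), rank 7 in lung WT Treg (3.12), rank 2 in spleen ∆Foxp3 Treg (27.2) and rank 5 in spleen WT Treg (11.1). Adding the 6 phosphatases per kilobase gave 377, 422 and 451 in lung ∆Foxp3, 687, 292 and 209 in lung WT, 137, 99.5 and 102 in spleen ∆Foxp3, and 133, 84.6 and 80.4 in spleen WT libraries. Every lung library thus lay above every spleen library, and within each tissue the genotypes overlapped. Dusp6 made up 7.22 ± 1.84% of that sum in lung ∆Foxp3 and 1.00 ± 0.619% in lung WT Treg, and 25.0 ± 8.19% in spleen ∆Foxp3 and 11.4 ± 2.63% in spleen WT Treg (SD, n = 3 libraries each). Dusp1 made up 68.3 ± 3.83% in lung ∆Foxp3 and 68.9 ± 4.40% in lung WT Treg, against 31.2 ± 14.5% in spleen ∆Foxp3 and 37.6 ± 9.76% in spleen WT Treg.

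**Figure D1:**
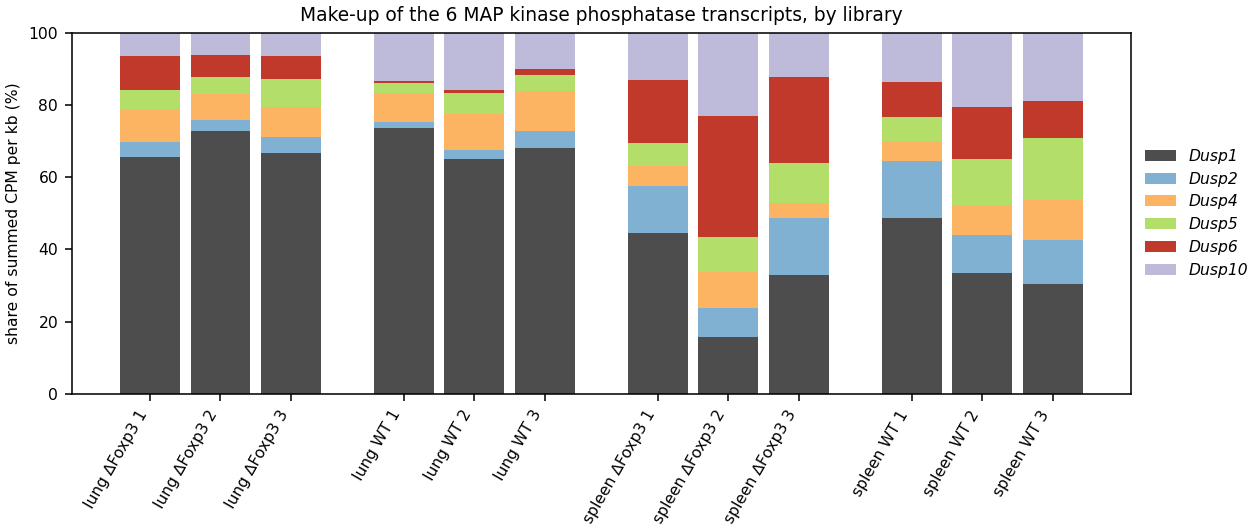
Share of each of the 6 MAP kinase phosphatases in their summed level, in CPM per kilobase of exon, for the libraries of lung ∆Foxp3, lung WT, spleen ∆Foxp3 and spleen WT Treg. Dusp1 takes 68.3% on average in lung ∆Foxp3 and 68.9% in lung WT Treg, and the Dusp6 share is smallest in lung WT Treg, at 1.00%.

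Dusp6 (ENSMUSG00000019960.8, chr10:99263231-99267489 of GRCm38, plus strand, with no overlapping gene) was the 1 member that changed with genotype in both tissues. It had 110.3, 80.1 and 88.5 CPM in lung ∆Foxp3 libraries, against 10.98, 7.26 and 11.1 CPM in lung WT libraries. The lowest lung ∆Foxp3 library stood far above the highest lung WT library, and the log2 fold change was 3.23 ± 0.25 (SE, n = 3 libraries each, edgeR quasi-likelihood test, adjusted p = 2.4e-06). In spleen, Dusp6 had 74.8, 105 and 76.2 CPM in ∆Foxp3 libraries, against 39.5, 38.2 and 26.1 CPM in WT libraries. Again no library of one genotype reached the range of the other, and the log2 fold change was 1.30 ± 0.23 (adjusted p = 0.000719). All 25 alternatives that ask, as here, for a change of any size kept both calls (a stricter test against a fold of 1.5 is counted apart), with adjusted p of at most 0.000111 in lung and 0.00566 in spleen. Both bounds cover the fits without the 3 libraries described as standing apart (lung ∆Foxp3 3, lung WT 1 and spleen WT 1), where the log2 fold change was 3.38 ± 0.32 in lung and 1.45 ± 0.27 in spleen.

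The level of Dusp6 differed between tissues in WT Treg and not detectably in ∆Foxp3 Treg. Lung WT Treg averaged 9.77 ± 2.18 CPM and spleen WT Treg 34.6 ± 7.42 CPM (SD, n = 3 each), a log2 fold change of −1.81 ± 0.25 for lung minus spleen (edgeR, adjusted p = 0.00087). Lung ∆Foxp3 Treg averaged 92.9 ± 15.6 CPM and spleen ∆Foxp3 Treg 85.3 ± 17.1 CPM, a log2 fold change of 0.12 ± 0.22 (adjusted p = 0.947), and their libraries overlapped. The order of the group means was lung ∆Foxp3, spleen ∆Foxp3, spleen WT and lung WT, and all neighbours in that order except the first pair were separated without overlap. The test of the difference itself gave an interaction of 1.94 ± 0.33 on the log2 scale (adjusted p = 0.0121), that is, a larger increase with the ∆Foxp3 allele in lung than in spleen. Over 24 alternatives the adjusted p of the interaction ran from 2.1e-06 to 0.0522, and the call was lost without lung ∆Foxp3 replicate 1 (1.81 ± 0.35, adjusted p = 0.0511) and without the 3 libraries that stand apart (1.93 ± 0.40, adjusted p = 0.0522). Since the ∆Foxp3 allele in the labels differs between lung and spleen, allele and tissue cannot be told apart in the interaction or in the comparison of the ∆Foxp3 groups. The spleen genotype comparison also differs, by the labels, in its Cre and reporter constructs.

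**Figure D2:**
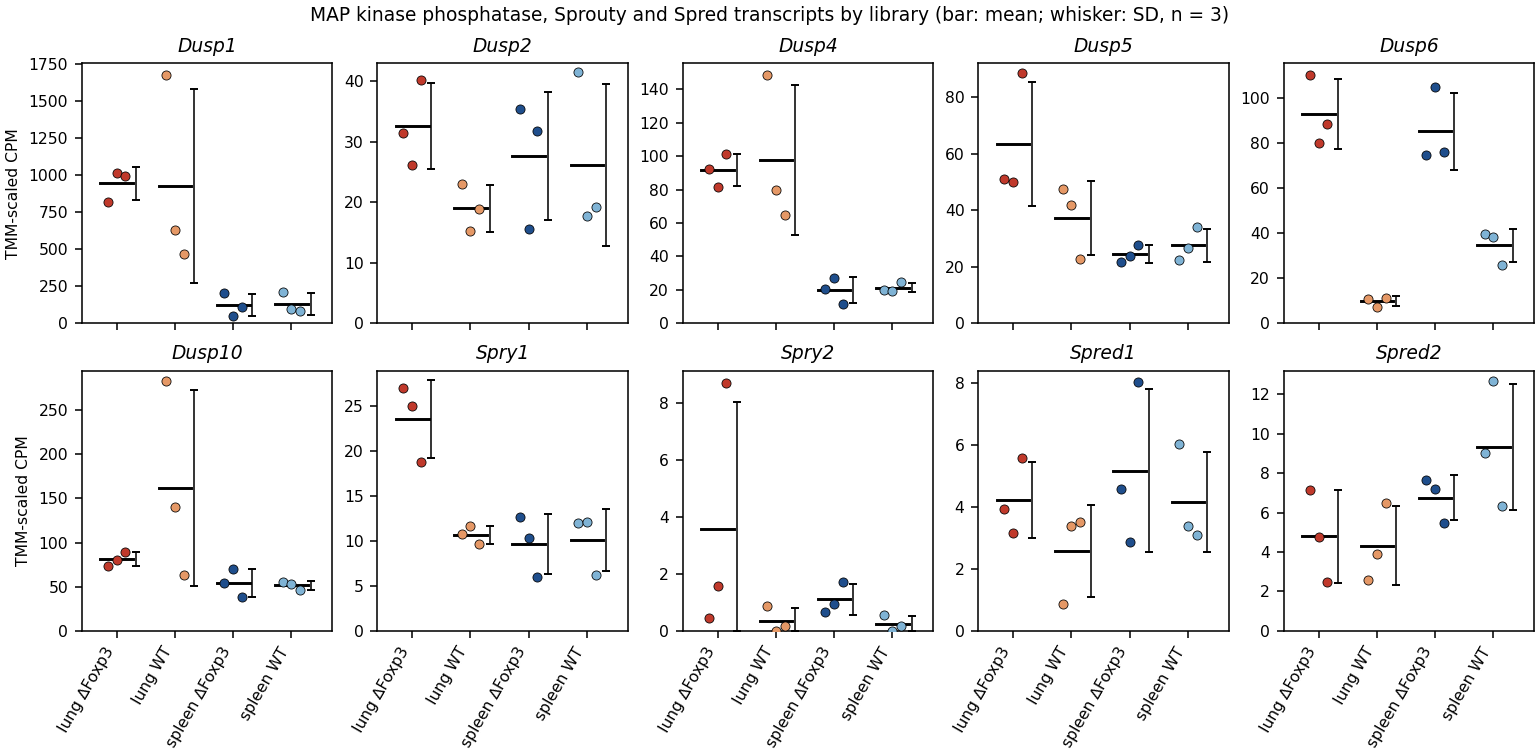
Level of each of the 10 genes in each library, in TMM-scaled CPM on a linear axis for each gene, with groups from left to right lung ∆Foxp3, lung WT, spleen ∆Foxp3 and spleen WT, a bar at the group mean and a whisker of 1 SD (n = 3, cut at 0). Dusp6 is lowest in the 3 lung WT libraries, at 7.26 to 11.1 CPM, while Dusp1 and Dusp4 are high in all 6 lung libraries.

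Spry1, a Sprouty protein that lymphocytes induce after antigen receptor signals, was higher in lung ∆Foxp3 than in lung WT Treg, and its call depended on the processing. Its level was 27.0, 25.0 and 18.8 CPM in lung ∆Foxp3 libraries, against 10.8, 11.7 and 9.67 CPM in lung WT libraries, with no overlap. The log2 fold change was 1.14 ± 0.35 (edgeR, adjusted p = 0.0344, with 0.00582 to 0.0936 over the alternatives). The call was lost with no low-count filter (adjusted p = 0.0529), without the 3 libraries that stand apart (0.0783), without lung WT replicate 1 (0.082), 2 (0.0766) or 3 (0.0899), and without lung ∆Foxp3 replicate 1 (0.0875) or 2 (0.0936). In spleen, the libraries overlapped at 12.7, 10.3 and 6.03 CPM in ∆Foxp3 Treg and 12.03, 12.1 and 6.17 CPM in WT Treg (log2 fold change −0.08 ± 0.35, adjusted p = 0.9). All 3 lung ∆Foxp3 libraries lay above all spleen ∆Foxp3 libraries, with a log2 fold change of 1.29 ± 0.36 that missed the threshold in edgeR (adjusted p = 0.152) and passed it in DESeq2 (0.0384). Spry1 lies at chr3:37639947-37644598 of GRCm38, and its overlapping neighbour Gm42922 had at most 0.179 CPM in any library.

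Spry2, which acts at the same step as Spry1, was too low to be tested. It had 2, 8 and 39 counts in lung ∆Foxp3 libraries, equal to 0.461, 1.59 and 8.71 CPM, against 0.861, 0 and 0.176 CPM in lung WT libraries. The third lung ∆Foxp3 library alone held 39 of the 49 counts of its group, and this is 1 of the 3 libraries that stand apart. Summed over libraries, lung ∆Foxp3 Treg had 49 counts and lung WT Treg 5, a depth-scaled ratio of 10.0 (exact 95% binomial interval 4.02 to 32.3, counting error only). Spleen ∆Foxp3 Treg had 19 counts and spleen WT Treg 6, a ratio of 4.24 (1.63 to 13.0). Those intervals leave out the spread between libraries. When the low-count filter was dropped, the edgeR test gave 3.26 ± 1.199 in lung (adjusted p = 0.083) and 2.03 ± 1.17 in spleen (adjusted p = 0.412).

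The Spred genes were close to the limit of the filter and were called in no comparison. Spred1 had 3.92, 3.17 and 5.58 CPM in lung ∆Foxp3 libraries, against 0.861, 3.37 and 3.52 CPM in lung WT libraries, and 4.59, 2.88 and 8.04 CPM in spleen ∆Foxp3 libraries, against 6.01, 3.39 and 3.09 CPM in spleen WT libraries. Spred2 had 7.15, 4.76 and 2.46 CPM in lung ∆Foxp3 libraries, against 2.58, 3.89 and 6.50 CPM in lung WT libraries, and 7.65, 7.19 and 5.45 CPM in spleen ∆Foxp3 libraries, against 9.02, 12.7 and 6.33 CPM in spleen WT libraries. For both genes the genotypes overlapped in each tissue. Their genotype log2 fold changes were 0.70 ± 0.61 in lung and 0.32 ± 0.58 in spleen for Spred1, and 0.13 ± 0.50 in lung and −0.47 ± 0.48 in spleen for Spred2. Standard errors of this size leave room for a change of 1 log2 unit in either gene.

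Dusp1, the nuclear phosphatase of all 3 kinase families and a classical immediate early gene, differed between tissues and not detectably between genotypes. It spans chr17:26505590-26562128 of GRCm38 (minus strand) and overlaps Ergic1 on the other strand, which had 42.0 to 84.1 CPM over all libraries; without a stated strand setting their shared reads cannot be told apart. Its level was 820, 1017 and 996 CPM in lung ∆Foxp3 libraries and 1675, 627 and 470 CPM in lung WT libraries. It was 202, 52.3 and 112 CPM in spleen ∆Foxp3 libraries and 214, 93.6 and 81.3 CPM in spleen WT libraries. Every lung library was above every spleen library, and within a tissue the genotypes overlapped. The genotype log2 fold change was 0.03 ± 0.56 in lung (edgeR, adjusted p = 0.979) and −0.09 ± 0.57 in spleen (adjusted p = 0.93). For lung minus spleen it was 2.83 ± 0.60 in WT Treg (adjusted p = 0.0261) and 2.95 ± 0.61 in ∆Foxp3 Treg, which missed the threshold (adjusted p = 0.0675). In WT Treg the adjusted p ran from 0.000571 to 0.104 over the alternatives, and the call was lost with no low-count filter (0.104), with only the compared groups in the fit (0.0676), without spleen WT replicate 2 (0.0943) or 3 (0.0838), and without lung ∆Foxp3 replicate 3 (0.0502). In ∆Foxp3 Treg, 8 alternatives called Dusp1, among them DESeq2 (0.00111), limma (0.00296), the replicate block (3.20 ± 0.40, adjusted p = 0.00583) and the fit without the 3 libraries that stand apart (0.0301).

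Dusp4, a nuclear phosphatase of ERK and JNK, had a difference between tissues that no alternative removed. It lies at chr8:34807297-34819894 of GRCm38 with no overlapping gene. Its level was 92.3, 81.7 and 101 CPM in lung ∆Foxp3 libraries and 149, 80.1 and 64.7 CPM in lung WT libraries, against 20.8, 27.3 and 11.8 CPM in spleen ∆Foxp3 libraries and 20.2, 19.3 and 24.7 CPM in spleen WT libraries. The 6 lung libraries were all above the 6 spleen libraries. The log2 fold change of lung minus spleen was 2.22 ± 0.32 in ∆Foxp3 Treg (edgeR, adjusted p = 0.00421, at most 0.0286 over 25 alternatives) and 2.19 ± 0.32 in WT Treg (adjusted p = 0.00143, at most 0.0144). Genotype moved it little, by −0.09 ± 0.30 in lung and −0.12 ± 0.32 in spleen, and neither value passed the test.

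Dusp5, the nuclear phosphatase selective for ERK, had its highest mean in lung ∆Foxp3 Treg. It lies at chr19:53529109-53542431 of GRCm38. It had 51.2, 50.2 and 88.7 CPM in lung ∆Foxp3 libraries, against 47.4, 41.7 and 22.7 CPM in lung WT libraries, and 21.6, 23.7 and 27.8 CPM in spleen ∆Foxp3 libraries, against 22.4, 26.8 and 33.9 CPM in spleen WT libraries. The lung genotypes did not overlap, but lung ∆Foxp3 replicates 1 and 2 were close to the highest lung WT library, and the log2 fold change of 0.77 ± 0.29 missed the threshold (edgeR, adjusted p = 0.077) and passed it with no low-count filter (0.0383), with limma (0.0293) and without spleen WT replicate 1 (0.04996). For lung minus spleen in ∆Foxp3 Treg the log2 fold change was 1.37 ± 0.30 (adjusted p = 0.0495). That call was lost in 15 of 25 alternatives, with adjusted p from 7.6e-05 to 0.236, among them RLE factors (0.053), upper-quartile factors (0.0609), library totals (0.0703), the replicate block (0.0904), the fit without the 3 libraries that stand apart (0.111), and the fits without spleen WT replicate 2 (0.0708) or 3 (0.0608), spleen ∆Foxp3 replicate 1 (0.214), 2 (0.094) or 3 (0.0892), lung WT replicate 2 (0.0723) and lung ∆Foxp3 replicate 1 (0.0668), 2 (0.0753) or 3 (0.236). In WT Treg lung minus spleen was 0.42 ± 0.29 (adjusted p = 0.477).

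Dusp2, a nuclear phosphatase of activated lymphocytes, was called in no comparison. It lies at chr2:127336159-127338376 of GRCm38. It had 31.4, 26.2 and 40.2 CPM in lung ∆Foxp3 libraries, against 23.04, 15.3 and 18.8 CPM in lung WT libraries. The lung genotypes did not overlap, and the log2 fold change was 0.77 ± 0.37 (edgeR, adjusted p = 0.152), which passed the threshold with limma (0.0388) and with only the compared groups in the fit (0.0337). In spleen it had 35.4, 15.6 and 31.9 CPM in ∆Foxp3 libraries, against 41.5, 17.7 and 19.3 CPM in WT libraries, and these overlapped.

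Dusp10, the phosphatase that prefers JNK and p38, had a lung genotype difference that rested on single libraries. It lies at chr1:184013302-184075636 of GRCm38, and its overlapping neighbour 1700056E22Rik had at most 1.94 CPM in any library. It had 73.8, 80.5 and 89.4 CPM in lung ∆Foxp3 libraries, against 282, 141 and 63.3 CPM in lung WT libraries. The third lung WT library lay below all lung ∆Foxp3 libraries and the other two above them, and the log2 fold change of −0.995 ± 0.39 did not pass the test (edgeR, adjusted p = 0.0905). Without lung WT replicate 3 it was −1.35 ± 0.28 (adjusted p = 0.00616), without lung WT replicate 1 it was −0.28 (adjusted p = 0.594), and in the fit that drops the 3 libraries standing apart it was −0.36 ± 0.34 (adjusted p = 0.534). It passed the threshold with no low-count filter (0.0064) and with DESeq2 (0.0352). Spleen libraries had 54.4, 69.5 and 38.5 CPM in ∆Foxp3 Treg and 55.6, 52.9 and 46.1 CPM in WT Treg. Lung minus spleen in WT Treg was 1.65 ± 0.40 (adjusted p = 0.0336). The call was lost with only the compared groups in the fit (0.0941), without the 3 libraries that stand apart (0.143, the highest of 25 alternatives), without spleen WT replicate 1 (0.103), 2 (0.103) or 3 (0.0949), without lung WT replicate 1 (0.99 ± 0.29, adjusted p = 0.0856) or 2 (0.0624), and without lung ∆Foxp3 replicate 2 (0.0533). In ∆Foxp3 Treg it was 0.59 ± 0.39 (adjusted p = 0.761), although the libraries did not overlap.

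The first lung WT library had the highest Dusp1, Dusp4 and Dusp10 of all 12 libraries. The same library also had the highest Fos (168 CPM) and Jun (330 CPM), immediate early genes that are known to respond to tissue dissociation. Hspa1a, a heat shock gene of the same kind, had 228, 250 and 676 CPM in lung ∆Foxp3, 127, 102 and 163 CPM in lung WT, 0.219, 0 and 0 CPM in spleen ∆Foxp3, and 2.56, 0 and 0 CPM in spleen WT libraries. The summed level of 21 dissociation-responsive genes was 7189 to 9908 CPM in lung ∆Foxp3, 4968 to 7725 CPM in lung WT, 2688 to 4043 CPM in spleen ∆Foxp3 and 3228 to 4855 CPM in spleen WT libraries. These values were higher in lung, as were Dusp1 and Dusp4, and their part in the tissue differences was not tested. In WT Treg 7 of these 21 genes were called higher in lung and 3 lower, where 3.1% of all tested genes were higher and 1.03% lower. The lower ones were Egr1 (−2.20 ± 0.24), Btg2 (−1.42 ± 0.22) and Socs3 (−1.41 ± 0.27), and Dusp6 was lower in lung as well.

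Counted over the 9 tested members, the genotype comparison in lung called 2 higher (Dusp6 and Spry1) and none lower, 2 of 9 in all, where 20.2% of all tested genes were called (9.74% higher, 10.5% lower). In spleen it called 1 of 9 (Dusp6, higher), against 26.6% of all genes (14.1% higher, 12.5% lower). Groups did not overlap for 4 of 9 members in lung (45.3% of all genes) and for 1 of 9 in spleen (38.2%). Neither count stands above the background. The median log2 fold change of the members was 0.70 in lung, against −0.01 over all tested genes, and −0.08 in spleen, against −0.02.

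Between tissues, 4 of 9 members were called in WT Treg, 3 higher in lung (Dusp1, Dusp4 and Dusp10) and 1 lower (Dusp6), where 4.13% of all genes were called (3.1% higher, 1.03% lower). Of all calls in that comparison 75.0% were higher in lung with TMM factors and 58.8% with library totals. In ∆Foxp3 Treg 2 of 9 were called, both higher in lung (Dusp4 and Dusp5), against 0.722% of all genes (0.549% higher, 0.173% lower). Groups did not overlap for 5 of 9 members in ∆Foxp3 Treg (15.5% of all genes) and for 4 of 9 in WT Treg (25.6%). The interaction called 1 of 9 (Dusp6), against 0.925% of all genes (0.143% higher, 0.782% lower).

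**Figure D3:**
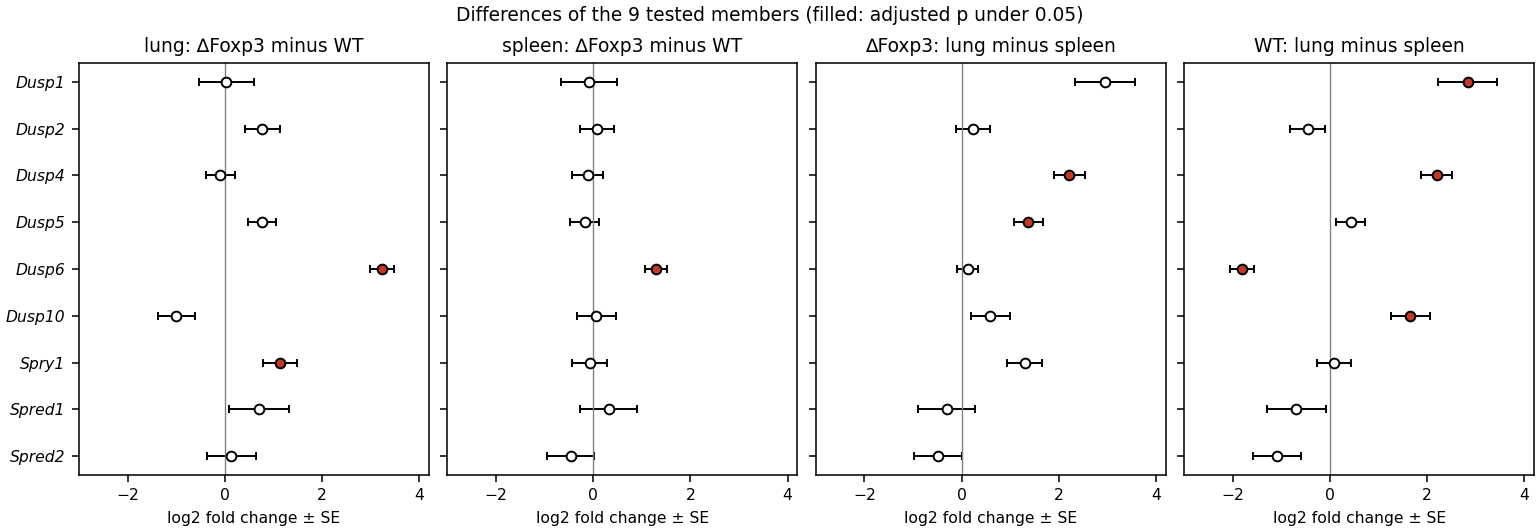
Log2 fold change of each of the 9 tested genes with its standard error, for the genotype comparison in lung and spleen and for lung minus spleen in ∆Foxp3 and WT Treg, with filled points at an adjusted p under 0.05. Dusp6 is the farthest from 0 in the lung genotype comparison, at 3.23, and Dusp1 and Dusp4 lie above 2 in both tissue comparisons.

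Other genes of the pathway were read from lists chosen by name. Their median log2 fold changes in lung were 1.16 for further MAP kinase phosphatases, 0.44 for atypical phosphatases, −0.08 for the Ras to ERK cascade, −0.53 for Ras GTPase activating proteins, −0.23 for the JNK and p38 cascade and 0.67 for ERK-induced genes, against −0.01 over all tested genes. In spleen the medians were 0.91, 0.23, −0.16, −0.60, −0.03 and 0.17 in the same order, against −0.02. Of 4 further MAP kinase phosphatases, 2 were tested, since Dusp8 and Dusp9 had 60 and 51 counts in all 12 libraries together. The medians of this list are therefore midpoints of Dusp16 and Dusp7 alone. Dusp7 was not called, at −0.23 ± 0.47 in lung (edgeR, adjusted p = 0.775) and 0.23 ± 0.45 in spleen (adjusted p = 0.753). Dusp16, which acts on JNK and p38, was higher in lung ∆Foxp3 than in lung WT Treg (log2 fold change 2.54 ± 0.61, edgeR, adjusted p = 0.00905, at most 0.0465 over 25 alternatives). It had 21.5, 22.8 and 29.5 CPM in lung ∆Foxp3 libraries, against 8.18, 3.11 and 1.41 CPM in lung WT libraries, with no overlap. In spleen its log2 fold change was 1.58 ± 0.57 and missed the threshold (adjusted p = 0.0522), with no overlap between genotypes. That spleen difference was called in 8 of 25 alternatives, among them DESeq2 (0.0193), limma (0.00495), the replicate block (0.0332) and the fit without the 3 libraries that stand apart (2.39 ± 0.48, adjusted p = 0.00398), and its adjusted p ran from 0.00129 to 0.141. Of the atypical dual specificity phosphatases, 9 of 11 were tested, and 1 was higher in lung ∆Foxp3 Treg (Dusp14, which in mouse T cells restrains receptor signalling, 2.81 ± 0.83, adjusted p = 0.0326) and 2 in spleen ∆Foxp3 Treg (Dusp14, 2.77 ± 0.86, adjusted p = 0.0306, and Dusp3, an ERK and JNK phosphatase, 1.72 ± 0.56, adjusted p = 0.0346). The Dusp14 call in lung was lost with no low-count filter (0.177) and without lung WT replicate 2 or 3 or any lung ∆Foxp3 library (0.059 to 0.0969). Its call in spleen was lost with no filter (0.172), with only the compared groups (0.0713) and without spleen WT replicate 2 or spleen ∆Foxp3 replicate 1 or 2 (0.0607 to 0.103). The Dusp3 call was lost with only the compared groups (0.0824), with the replicate block, and without spleen WT replicate 2 or 3 or spleen ∆Foxp3 replicate 1 or 3 (0.0602 to 0.121). None of either list was called lower. Over all tested genes, 9.74% were higher and 10.5% lower in lung ∆Foxp3 Treg, and 14.1% and 12.5% in spleen ∆Foxp3 Treg. The remaining Sprouty and Spred genes were not tested, with 1 count of Spry3, 18 of Spry4 and 59 of Spred3 in all libraries.

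Of 17 tested genes of the Ras to ERK cascade, 1 was higher and none lower in lung ∆Foxp3 Treg, where 9.74% of all tested genes were higher and 10.5% lower. It was the scaffold Ksr1 (means of 27.8 and 7.71 CPM in ∆Foxp3 and WT Treg, 1.84 ± 0.41, adjusted p = 0.00619). In spleen none was higher and 2 were lower (14.1% and 12.5% of all genes), the adaptor Lat (−0.46 ± 0.14, adjusted p = 0.0265) and the Ras exchange factor Rasgrp1 (−0.87 ± 0.28, adjusted p = 0.0328). Neither count stands above these shares. The Lat call was lost with only the compared groups (0.0823), without the 3 libraries that stand apart (0.143) and when spleen WT 1, spleen ∆Foxp3 1 or 3, lung WT 2 or lung ∆Foxp3 1 was left out (0.0534 to 0.132). The Rasgrp1 call was lost without spleen WT 2 or 3 or spleen ∆Foxp3 1 or 2 (0.0893 to 0.127). No gene of this list was called between tissues.

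Ras GTPase activating proteins, which switch Ras off ahead of the kinases, had 6 genes tested. In lung ∆Foxp3 Treg 3 were lower and none higher, where 10.5% of all genes were lower, and in spleen ∆Foxp3 Treg 4 were lower and none higher, where 12.5% were lower. Rasal1 averaged 6.67 CPM in lung ∆Foxp3 and 22.5 CPM in lung WT Treg (−1.74 ± 0.34, adjusted p = 0.00237), and 9.07 CPM in spleen ∆Foxp3 and 38.8 CPM in spleen WT Treg (−2.11 ± 0.33, adjusted p = 0.000308). Rasa3 was lower by −1.06 ± 0.19 in lung (adjusted p = 0.00142) and Rasa2 by −0.92 ± 0.21 in spleen (adjusted p = 0.00421), and these 4 calls held under all 25 alternatives. Rasa2 in lung was −0.64 ± 0.21 (adjusted p = 0.0396), a call lost in 10 of 25 alternatives, among them those without any 1 lung library, spleen WT 3 or spleen ∆Foxp3 1 (0.0502 to 0.147). Rasa1 in spleen was −0.67 ± 0.22 (adjusted p = 0.034), a call lost in 9, among them those without spleen WT 1 or 2, spleen ∆Foxp3 1 or 3, lung WT 2 or 3 or lung ∆Foxp3 2 (0.0527 to 0.135). Rasa3 in spleen was −0.54 ± 0.19 (adjusted p = 0.0458), a call lost in 17, among them those without any 1 library except spleen ∆Foxp3 3 (0.05 to 0.167).

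In the JNK and p38 cascade, 15 of 16 listed genes were tested, with 4 higher and 4 lower in lung ∆Foxp3 Treg (9.74% and 10.5% of all genes) and 1 higher and 4 lower in spleen ∆Foxp3 Treg (14.1% and 12.5%). Map2k3, a kinase that activates p38, averaged 383 CPM in lung ∆Foxp3 and 132 CPM in lung WT Treg (1.53 ± 0.24, adjusted p = 0.000643), and 340 CPM in spleen ∆Foxp3 and 106 CPM in spleen WT Treg (1.67 ± 0.24, adjusted p = 0.000183). Mapkapk3, a kinase downstream of p38, was higher in lung (1.205 ± 0.14, adjusted p = 6.6e-05). The p38 isoform genes Mapk11 (−1.45 ± 0.22 in lung, −1.49 ± 0.22 in spleen) and Mapk12 (−3.34 ± 0.63 in lung, −2.97 ± 0.61 in spleen) were lower in both tissues. Those 7 calls held under every alternative. Mapk12 averaged 0.780 CPM in lung ∆Foxp3 and 8.19 CPM in lung WT Treg, and 1.05 CPM in spleen ∆Foxp3 and 8.09 CPM in spleen WT Treg. Its ∆Foxp3 levels were near that of 3 counts in a library, so the size of its change is not firm. The p38 isoform gene Mapk14 was not called, at −0.25 ± 0.25 in lung (edgeR, adjusted p = 0.531) and 0.09 ± 0.25 in spleen (adjusted p = 0.819). No gene of this list was called between tissues.

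Genes that ERK signalling is known to induce included several with the Dusp6 pattern in lung. Of 16 tested, 6 were higher and none lower in lung ∆Foxp3 Treg, where 9.74% of all tested genes were higher and 10.5% lower. Egr2, a zinc finger transcription factor induced by antigen receptor signals, had 102, 64.4 and 44.0 CPM in lung ∆Foxp3 libraries, against 1.72, 0 and 0.879 CPM in lung WT libraries (6.23 ± 0.54, adjusted p = 7.6e-06). Egr1 of the same family had 39.2, 53.7 and 61.7 CPM in lung ∆Foxp3 libraries, against 20.5, 18.7 and 16.0 CPM in lung WT libraries (1.49 ± 0.24, adjusted p = 0.000634). For both genes the lung WT libraries were the lowest of all 12. The kinase gene Plk3 (2.29 ± 0.34, adjusted p = 0.000375) and the stress response gene Ier3 (5.00 ± 0.77, adjusted p = 0.000706) were also higher, and so were Egr3 (3.68 ± 0.78, adjusted p = 0.00428) and Fosl2 (1.85 ± 0.40, adjusted p = 0.00472). Lung WT libraries had only 1.72, 0 and 1.23 CPM of Ier3 and 1.29, 1.81 and 0 CPM of Egr3. As for Egr2, the sizes of these changes are not firm at such low WT levels.

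In spleen the same list had 3 members higher and 2 lower in ∆Foxp3 Treg (14.1% and 12.5% of all genes). Ier3 (6.57 ± 0.83, adjusted p = 8.8e-05) and Plk3 (1.54 ± 0.33, adjusted p = 0.00325) were higher under every alternative. Spleen WT libraries had only 0, 0.715 and 0.772 CPM of Ier3, so the size of its change is not firm. Egr2 had 65.6, 82.2 and 46.9 CPM in spleen ∆Foxp3 libraries, against 63.6, 60.7 and 38.1 CPM in spleen WT libraries, and these overlapped. Egr1 had 45.9, 64.2 and 53.1 CPM in spleen ∆Foxp3 libraries, against 79.7, 106 and 66.3 CPM in spleen WT libraries, without overlap, and its call as lower was lost in 18 of 25 alternatives, among them those without any 1 library except spleen WT 3 and spleen ∆Foxp3 2 (adjusted p = 0.0533 to 0.218). Between tissues in WT Treg 5 members were higher and 3 lower in lung (3.1% and 1.03% of all genes). The lower ones were Egr2 (−5.86 ± 0.54, adjusted p = 7.3e-05), Egr1 (−2.20 ± 0.24, adjusted p = 0.000169) and Myc (−1.30 ± 0.23, adjusted p = 0.00421). The higher ones were Fosl2 (2.46 ± 0.44, adjusted p = 0.00496), Plk2 (2.80 ± 0.61, 0.0176), Phlda1 (2.42 ± 0.55, 0.0212), Fosb (2.99 ± 0.74, 0.0322) and Junb (1.56 ± 0.37, 0.0328). Leaving out single libraries lost the Phlda1 call in 4 fits (0.0585 to 0.0804) and the Junb call in 4 (0.0501 to 0.109). In ∆Foxp3 Treg 3 were higher in lung and none lower (0.549% and 0.173% of all genes), among them the AP-1 subunit gene Junb (means of 1675 CPM in lung and 287 CPM in spleen, 2.54 ± 0.38, adjusted p = 0.00819). The Junb call in ∆Foxp3 Treg was lost with no low-count filter (0.0565) and without spleen ∆Foxp3 replicate 1 (0.0505) or 3 (0.0596). Dusp6, Egr2 and Egr1 were thus all lower in lung WT than in spleen WT Treg, and all higher in lung ∆Foxp3 than in lung WT Treg. These comparisons share the lung WT libraries.

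**Figure D4:**
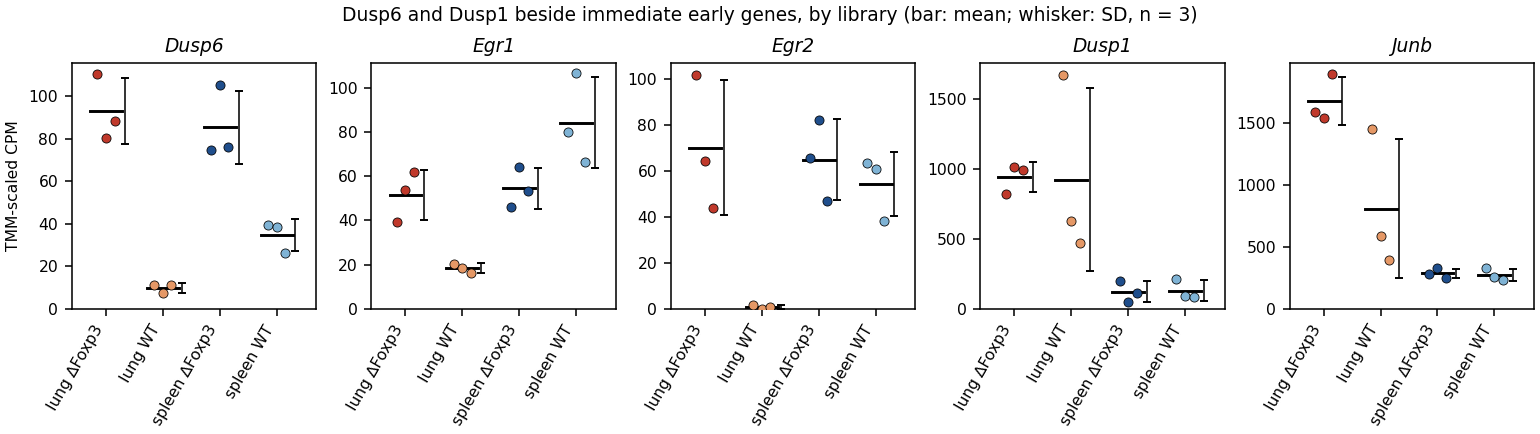
Level of Dusp6, Egr1, Egr2, Dusp1 and Junb in each library, in TMM-scaled CPM on a linear axis for each gene, for lung ∆Foxp3, lung WT, spleen ∆Foxp3 and spleen WT Treg, with a bar at the group mean and a whisker of 1 SD (n = 3, cut at 0). The 3 lung WT libraries are the lowest for Dusp6 (7.26 to 11.1 CPM), Egr1 (16.0 to 20.5 CPM) and Egr2, while Dusp1 and Junb are higher in lung than in spleen.

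The genes whose profile over the 12 libraries lay nearest to that of Dusp6 were taken from the 8460 genes averaging at least 10 CPM, by the root mean square difference of centred log2 levels. They were Bcl2a1b, an anti-apoptotic BCL2 relative (difference 0.45 log2 units), Galk1, the galactokinase (0.51), and Litaf, an endosomal membrane protein gene (0.53), where the SD of the Dusp6 profile was 1.37 log2 units. Bcl2a1b has near-identical copies among which reads can be split, so its level is uncertain.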

How the data were processed

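The data were 12 RNA-seq libraries, 3 in each of 4 groups. Raw counts, 1 column per library, were deposited by the authors and used unchanged. Per the labels' protocols, polyadenylated RNA of 1000 cells was copied, fragmented by Tn5 and amplified for 18 cycles without molecular identifiers, then read in pairs of 38 nt. Intervals and floors from counts therefore cover the counting error alone. The submitters' processing notes name mm10, featureCounts, Subread 2.0.0 and STAR 2.7.3a. Settings, annotation and strandedness were not given in the sources used here. Coordinates came from an annotation of GRCm38 in which 96.2% of the symbols were found.

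Counts were tested with the quasi-likelihood test of edgeR 4.0.16 (R 4.3.3, robust dispersion, TMM factors, default low-count filter), in 1 fit over the 12 libraries with group as the only term, two-sided, with Benjamini-Hochberg adjustment over the 13295 tested genes and a call at an adjusted p under 0.05. Errors of fold changes are standard errors of the fit. Levels are TMM-scaled CPM. The members, lists, tests and alternatives were chosen with earlier results of these data known. Called list genes named were up to 4 a list by adjusted p in each comparison; others named beyond this were chosen after their values were seen. Genes with profiles like a member were sought for members called in both genotype comparisons, which was Dusp6. Alternatives were other scalings (RLE, upper quartile, library totals), no filter, 10 CPM in 3 libraries, DESeq2 1.42.0, limma 3.58.1 (voom with quality weights), edgeR without robust dispersion, glmTreat against a fold of 1.5, only the compared groups, a replicate block, thinning, dropping mitochondrial, ribosomal and receptor genes, leaving out the 3 libraries that an earlier analysis described as standing apart, and leaving out each library. Counts of alternatives beside an adjusted p, and its ranges, leave out glmTreat. The pipeline was tested on simulated data.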

Additional observations from a re-analysis of the deposited data

Results flagged for a closer look

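The effect of the ∆Foxp3 allele differed between lung and spleen by the interaction test for 4 genes followed here, each with the more positive change in lung: Dusp6 (1.94 ± 0.33 on the log2 scale, edgeR, adjusted p = 0.0121), Egr2 (5.97 ± 0.66, adjusted p = 0.000758), Egr1 (2.12 ± 0.32, adjusted p = 0.006) and Btg2, an antiproliferative immediate early gene (2.98 ± 0.31, adjusted p = 0.000496). The genes followed were the 9 tested members and the tested genes of the lists. Over all tested genes the interaction called 0.925%, of which most were less positive in lung (0.143% higher, 0.782% lower). The Dusp6 call was lost in 2 of 24 alternatives, and those of Egr2, Egr1 and Btg2 held in all 24. Btg2 averaged 443 CPM in lung ∆Foxp3 and 251 CPM in lung WT Treg, and 150 CPM in spleen ∆Foxp3 and 674 CPM in spleen WT Treg. The alleles named for the ∆Foxp3 groups differ between the tissues, so tissue and allele cannot be told apart.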

How the results depend on the processing

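Dusp6 kept its direction and its call in both genotype comparisons and in WT Treg between tissues, and Dusp4 in both tissue comparisons, under the 25 alternatives. Of 259 recomputed values of called members, 218 kept the call, 41 lost it and none changed sign. Of those not called, 17 of 892 became called, among them Dusp2 in lung with limma (0.0388) and with only the compared groups (0.0337).

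Members called in the lung genotype comparison numbered 2, against 4 with limma and 1 with glmTreat or without the 3 libraries that stand apart. In lung against spleen WT Treg they numbered 4, against 2 with glmTreat or only the compared groups. In lung against spleen ∆Foxp3 Treg they numbered 2, against 1 with RLE, upper-quartile factors, library totals or glmTreat and 4 with DESeq2. For the interaction there was 1, against 0 without the 3 libraries. Leaving out single libraries gave 1 to 3, 2 to 4, 1 to 3 and 0 to 1 in the same order.

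Over all genes, 2686 calls for genotype in lung became 4627 with limma, 932 with glmTreat and 1321 without the 3 libraries (1457 to 3364 leaving out single libraries), and 3540 in spleen became 1648 with glmTreat and 2287 with only the compared groups. Between tissues, 549 calls in WT Treg became 957 with no filter, 1046 with DESeq2, 1064 with limma and 235 with glmTreat (281 to 693), and 96 in ∆Foxp3 Treg became 292, 235, 260 and 38 (42 to 152). The 123 interaction calls became 363, 304, 219 and 50 (36 to 178), and 74 with the replicate block. The causes were not tested.

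The labels do not say what a replicate number marks. Deviations of same-numbered libraries correlated at −0.077 to 0.087 over 18 pairs, and those of differently numbered libraries at −0.093 to 0.085 over 36. With 3 libraries in each group, these values show no pairing and cannot exclude it. With the replicate block Dusp6 was 3.22 ± 0.26 in lung and 1.31 ± 0.23 in spleen.

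Spry2 had 3 counts or fewer in some libraries, and its level is not firm at this depth.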

Other observations

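The list of 21 dissociation-responsive genes, all tested, shares Egr1, Ier3, Ier2, Fos, Fosb and Junb with the list of ERK-induced genes. Between tissues it had 8 members higher in lung and none lower in ∆Foxp3 Treg, where 0.549% of all tested genes were higher and 0.173% lower, and 7 higher and 3 lower in WT Treg, where 3.1% were higher and 1.03% lower. Klf6, a zinc finger transcription factor, averaged 334 CPM in lung ∆Foxp3 and 105 CPM in spleen ∆Foxp3 Treg (log2 fold change 1.66 ± 0.19, edgeR, adjusted p = 0.000515), and 587 CPM in lung WT and 205 CPM in spleen WT Treg (1.52 ± 0.19, adjusted p = 0.000432). Between genotypes 3 members were higher and 1 lower in lung ∆Foxp3 Treg (9.74% and 10.5% of all genes), and 1 was higher and 5 lower in spleen ∆Foxp3 Treg (14.1% and 12.5%). Btg2 was lower in spleen ∆Foxp3 Treg (−2.17 ± 0.23, adjusted p = 1.3e-05), and the RNA decay factor Zfp36, which limits inflammatory transcripts, was also lower there (means of 29.6 and 96.4 CPM in ∆Foxp3 and WT Treg, −1.71 ± 0.45, adjusted p = 0.0143), a call lost with no low-count filter (0.0963), with limma (0.0507) and without spleen WT replicate 1 or spleen ∆Foxp3 replicate 2 or 3 (0.0593 to 0.0712).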
